A study of Mus musculus with 2 samples.

Results

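Open chromatin inside protein-coding exons, away from promoters, was described in hindbrain of newborn B6NCrl mice (postnatal day 0, males and females pooled). DNase-seq was done on 2 biological replicates, which are separate tissue samples listed under the same donor entry; how many animals each holds is not stated in what was used here. The replicates form the only group, so no condition is compared and no test between conditions was possible. A region was counted when peaks of both replicates overlapped by at least 1 bp, when the merged peak lay more than 2000 bp from the start site of every annotated transcript, and when its midpoint lay in the coding sequence of a protein-coding gene. Of 136714 regions found in both replicates, 91172 lay that far from start sites, and 1514 of these had their midpoint in coding sequence. They made up 1.66% of the regions far from start sites (exact binomial 95% interval 1.58% to 1.75%). The others were 44048 in introns, 43003 between genes, 1886 in the untranslated part of exons and 721 in exons of noncoding genes. The tissue is a mixture of cell types, so a site open in few cells and a site weakly open in many cannot be told apart. Intervals here cover counting error only, since neighbouring regions and regions of 1 library are not independent.

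DNase I cuts DNA where nucleosomes have been displaced, which is mostly at promoters, enhancers and sites bound by the insulator factor CTCF. Coding exons are read by the ribosome as messenger RNA, but as DNA they can also be bound by transcription factors, so the same bases may serve both uses. Coding exons are richer in G and C than the introns around them, and most CpG dinucleotides outside CpG islands have been lost from the genome by deamination of methylated cytosine. The hindbrain holds the cerebellum, pons and medulla. All 10 markers of hindbrain identity that were checked, among them Hoxa2, En2 and Atoh1, had a promoter peak in both replicates, as had 4 of 4 neuronal and 4 of 4 glial markers, against 3 of 5 forebrain markers, 0 of 3 blood markers and 0 of 2 liver markers. Such a peak was common: 73.3% of the 16818 protein-coding genes with coding sequence more than 2000 bp from every start site had one. The marker counts are too small to be set apart from that share.

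The sequences of 15 of these regions are given here from the RefSeq assembly GRCm38.p6 (mm10), each 5′ to 3′ on the coding strand of its gene. The first set holds strong regions with a match to the motif of a DNA-binding protein, which is in capitals; a match is a description of the letters and not a bound site. The motifs are the NRF1 motif GCGCATGCG in Zfp771, the CTCF motif AGNGGGCGC in Prrt4 and Prrt3, the RFX motif GTTGCCATG in Cabin1 and Focad, and the Sp1 box GGGCGG in Zfp697 and Plvap, each searched on both strands. The positions are chr7:127254196-127254365 (+) for Zfp771, chr6:29171176-29171325 (-) for Prrt4, chr6:113494556-113494705 (-) for Prrt3, chr10:75684296-75684445 (-) for Cabin1, chr4:88407116-88407285 (+) for Focad, chr3:98427596-98427765 (+) for Zfp697 and chr8:71507696-71507865 (-) for Plvap.
Zfp771: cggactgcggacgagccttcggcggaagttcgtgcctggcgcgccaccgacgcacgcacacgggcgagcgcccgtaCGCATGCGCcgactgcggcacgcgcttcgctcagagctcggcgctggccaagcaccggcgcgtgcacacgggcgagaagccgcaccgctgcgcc
Prrt4: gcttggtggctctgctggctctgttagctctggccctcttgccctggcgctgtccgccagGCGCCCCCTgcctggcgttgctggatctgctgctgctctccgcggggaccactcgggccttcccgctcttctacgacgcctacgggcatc
Prrt3: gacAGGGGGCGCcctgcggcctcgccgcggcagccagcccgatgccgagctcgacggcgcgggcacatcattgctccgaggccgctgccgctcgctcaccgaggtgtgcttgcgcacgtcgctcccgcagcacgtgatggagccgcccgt
Cabin1: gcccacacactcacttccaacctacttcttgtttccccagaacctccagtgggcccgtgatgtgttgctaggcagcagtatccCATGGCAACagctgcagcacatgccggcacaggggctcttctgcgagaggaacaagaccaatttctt
Focad: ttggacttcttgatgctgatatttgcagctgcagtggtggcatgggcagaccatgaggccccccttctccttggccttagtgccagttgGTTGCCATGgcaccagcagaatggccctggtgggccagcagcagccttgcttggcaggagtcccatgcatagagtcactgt
Zfp697: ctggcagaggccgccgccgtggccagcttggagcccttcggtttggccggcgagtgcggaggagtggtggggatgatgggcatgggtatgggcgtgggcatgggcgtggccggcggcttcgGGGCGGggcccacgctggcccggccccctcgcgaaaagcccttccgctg
Plvap: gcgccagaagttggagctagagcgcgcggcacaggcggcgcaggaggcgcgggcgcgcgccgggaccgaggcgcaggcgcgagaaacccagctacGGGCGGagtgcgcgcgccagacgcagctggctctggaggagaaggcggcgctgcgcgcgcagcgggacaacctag

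The second set shows regions that reach over the edge of an exon, with coding bases in capitals and the intron in lower case. They are chr6:83268276-83268425 (+) in Slc4a5 with 107 coding bases, chr19:46309156-46309305 (+) in Nfkb2 with 141, chr9:44836556-44836725 (-) in Kmt2a with 142, and chr4:28935656-28935865 (+) in Epha7 with 125. The Slc4a5 and Nfkb2 regions run over the 3′ edge of the exon, the Kmt2a region over its 5′ edge, and the Epha7 region over both.
Slc4a5: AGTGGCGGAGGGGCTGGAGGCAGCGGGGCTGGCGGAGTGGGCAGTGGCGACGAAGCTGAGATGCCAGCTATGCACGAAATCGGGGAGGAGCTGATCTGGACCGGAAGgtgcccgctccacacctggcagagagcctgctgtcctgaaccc
Nfkb2: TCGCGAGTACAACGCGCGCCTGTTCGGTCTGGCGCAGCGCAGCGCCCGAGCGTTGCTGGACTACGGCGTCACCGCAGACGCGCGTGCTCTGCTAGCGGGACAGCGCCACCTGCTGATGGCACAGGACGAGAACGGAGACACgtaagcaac
Kmt2a: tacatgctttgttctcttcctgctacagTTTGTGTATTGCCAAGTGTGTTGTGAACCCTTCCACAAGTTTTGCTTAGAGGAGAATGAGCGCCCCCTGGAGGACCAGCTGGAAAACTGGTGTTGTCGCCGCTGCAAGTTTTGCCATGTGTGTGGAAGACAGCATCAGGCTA
Epha7: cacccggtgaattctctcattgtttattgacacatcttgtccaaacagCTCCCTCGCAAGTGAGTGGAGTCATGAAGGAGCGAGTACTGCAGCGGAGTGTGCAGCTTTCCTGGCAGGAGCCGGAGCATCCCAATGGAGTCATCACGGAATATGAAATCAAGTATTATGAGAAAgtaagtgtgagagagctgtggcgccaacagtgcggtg

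The third set contrasts strong and weak regions by their CpG dinucleotides, which are in capitals. Pomc at chr12:3959916-3960065 (+) and Garem2 at chr5:30114496-30114645 (+) rank 6 and 18 by score and hold 14 and 25 CpG. Zfp97 at chr17:17145436-17145585 (+) and Obox2 at chr7:15397096-15397325 (+) rank last, at 1513 and 1514, and hold 0 and 3 CpG.
Pomc: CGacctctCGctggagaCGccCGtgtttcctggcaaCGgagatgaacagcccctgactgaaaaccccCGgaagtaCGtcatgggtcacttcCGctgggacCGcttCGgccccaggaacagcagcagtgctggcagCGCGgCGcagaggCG
Garem2: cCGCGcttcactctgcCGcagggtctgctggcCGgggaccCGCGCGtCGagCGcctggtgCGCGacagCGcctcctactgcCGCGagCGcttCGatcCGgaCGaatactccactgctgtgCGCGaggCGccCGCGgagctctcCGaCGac
Zfp97: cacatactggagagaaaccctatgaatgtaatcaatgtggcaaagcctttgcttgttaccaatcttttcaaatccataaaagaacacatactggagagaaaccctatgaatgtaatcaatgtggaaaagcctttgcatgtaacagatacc
Obox2: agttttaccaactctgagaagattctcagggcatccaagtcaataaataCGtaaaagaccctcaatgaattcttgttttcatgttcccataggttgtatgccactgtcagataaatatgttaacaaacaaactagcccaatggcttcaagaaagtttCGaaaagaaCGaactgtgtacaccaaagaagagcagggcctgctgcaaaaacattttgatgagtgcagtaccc

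The authors' score per peak is a whole number from 1 to 150 whose scaling is not stated, and it was used only to rank regions within a replicate. The strongest region lay in the last coding exon of Zfp771, a zinc finger gene, with scores of 145 in replicate 1 and 133 in replicate 2. Fbxl22, which encodes an F-box protein, followed with 141 and 132, and Bcat2, the mitochondrial branched-chain aminotransferase, with 144 and 127. The Bcat2 region had only 21.2% of its bases in coding sequence, because its last coding exon spans 36 bp. Snx20, a sorting nexin, had 143 and 119, Lrrc24, a leucine-rich repeat protein, 138 and 124, and Pomc, the precursor of corticotropin and melanocyte-stimulating hormone, 135 and 121. These 6 regions all lay in the last coding exon of their gene, as did 11 of the 20 strongest. Slc4a5, a bicarbonate cotransporter, came next with 134 and 120 in exon 9 of 23. At the weak end, Adamts18, a secreted metalloprotease, had 13 and 11, Zfp97 had 9 and 10, and Obox2, an oocyte homeobox gene, had 9 and 8.

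Over all 1514 regions the median score was 63 in replicate 1 (range 9 to 145) and 41 in replicate 2 (range 8 to 133). Replicate 1 had the higher score at 1474 regions, and the scores of both replicates ranked the regions alike (Spearman's rho 0.879 across regions, a description). Scn8a, a voltage-gated sodium channel gene, had 127 in replicate 1 and 72 in replicate 2, at percentiles of 96.8 and 83.8 of the lists. Over all regions the percentile in replicate 1 was higher by a median of 13.5 (quartiles 4.87 and 23.8), so the ranks of Scn8a were not unusual. Coding exon regions stood at a median percentile of 71.2 among the peaks of replicate 1 and 54.5 among those of replicate 2, against 71.2 and 55.997 in the untranslated part of exons, 68.6 and 51.1 for introns and 67.7 and 51.1 between genes. The difference from introns was 0 in replicate 1 and -0.55 in replicate 2 with hotspots in place of peaks, and 0 in replicate 2 at over 5000 bp from start sites. A mean percentile over 95 was reached by 1.52% of coding exon regions (0.965% to 2.27%), against 0.588% in introns (0.519% to 0.664%) and 1.093% between genes (0.997% to 1.196%).

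**Figure D1:**
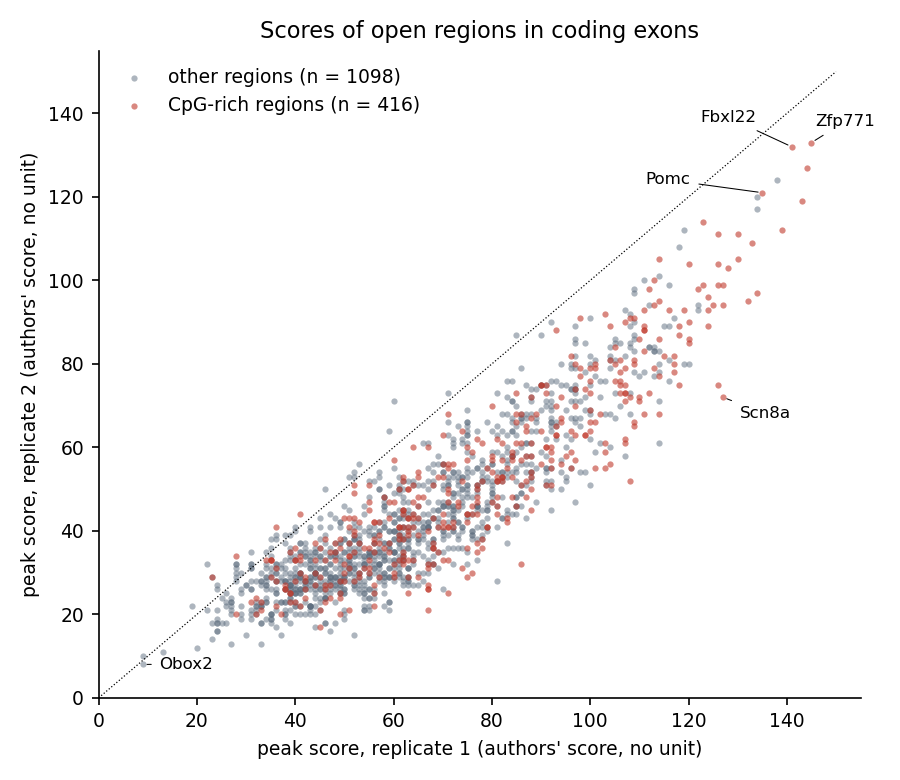
Peak score of each of the 1514 coding exon regions in replicate 1 (horizontal) and replicate 2 (vertical), authors' score without a unit; red points are the 416 CpG-rich regions, grey points the others, and the dotted line marks equal scores. Most points lie below the line, and the upper right corner holds many CpG-rich regions, Zfp771, Fbxl22 and Pomc among them.

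The score order between the classes changed once base composition was held alike. Among regions with a GC content of 50% to 60%, coding exon regions had median percentiles of 69.5 and 49.3 in replicates 1 and 2, against 73.4 and 57.5 in introns. Above 60% they had 82.2 and 67.4, against 84.3 and 69.4 in introns. At up to 50% they had 59.2 and 43.3, against 61.6 and 45.4 in introns.

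The recurrence of coding exon peaks depended on which replicate they were taken from, as it did in introns and between genes. Replicate 1 had 270757 peaks in all and replicate 2 had 171790, and the lists were not cut to equal length here. Of 3421 such peaks of replicate 1, 45.1% (43.4% to 46.8%) met a peak of replicate 2, against 47.3% in introns and 48.6% between genes. Of 1834 peaks of replicate 2, 85.6% (83.9% to 87.1%) met one of replicate 1, against 83.5% in introns and 81.3% between genes. With the peaks of replicate 1 split by score into 5 groups of equal size, 71.2% of coding exon peaks in group 4 (67.9% to 74.4%) were found again, against 79.04% (78.5% to 79.6%) in introns and 84.3% (83.7% to 84.8%) between genes. In group 5, the strongest, the share was 96.5%, against 98.1% in introns. Peaks of replicate 2 did not keep this order in the weaker groups. Coding exon peaks had 55.2% against 52.9% in introns in group 1, 84.3% against 80.4% in group 2 and 93.5% against 92.8% in group 3. In groups 4 and 5 they had 96.5% against 98.1% and 97.8% against 99.6%. Coding exon peaks of replicate 1 that were not found again had a median score of 35, against 63 for those that were.

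Taken as a whole, coding sequence was denser in open regions than introns or sequence between genes. More than 2000 bp from start sites it held 71.8 regions per Mb (exact Poisson 95% interval 68.2 to 75.5) over 21.1 Mb, against 52.6 (50.2 to 54.98) in the untranslated part of exons, 66.9 (62.1 to 71.97) in exons of noncoding genes, 46.6 (46.2 to 47.0) in introns and 30.3 (30.0 to 30.6) between genes. The density was 1.54 times that of introns and 2.37 times that between genes, and it was higher in each of 5 bins of distance from the nearest start site. At 2 to 5 kb it was 77.3 per Mb, against 53.1 in introns and 41.3 between genes, and beyond 50 kb it was 79.6, against 38.0 and 19.8.

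Against introns the direction turned round in windows of like GC content below 65%. Windows of 150 bp with a GC content of 55% or more made up 27.8% of coding sequence, against 4.76% of introns and 3.24% between genes. In windows of 55% to 60% GC, coding sequence held 96.8 regions per Mb (86.9 to 108), against 186 (181 to 190) in introns and 171 (166 to 175) between genes. In windows of 60% to 65% it held 147 (129 to 165), against 274 (263 to 286) and 233 (222 to 243). Between genes the order was not the same throughout: at 40% to 45% coding sequence held 27.5 (22.3 to 33.5), against 24.8 (24.3 to 25.4). Coding sequence was the densest of the 3 classes from 65% GC on, and at 70% and above it held 1013 per Mb (841 to 1209), against 528 (442 to 626) in introns and 617 (541 to 700) between genes. With the intron densities of each GC bin, the coding windows would have held 2240 regions, so that the 1514 found are 0.676 times that number, and with the densities between genes 0.775 times. This view by GC content was chosen after the other values were seen.

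**Figure D2:**
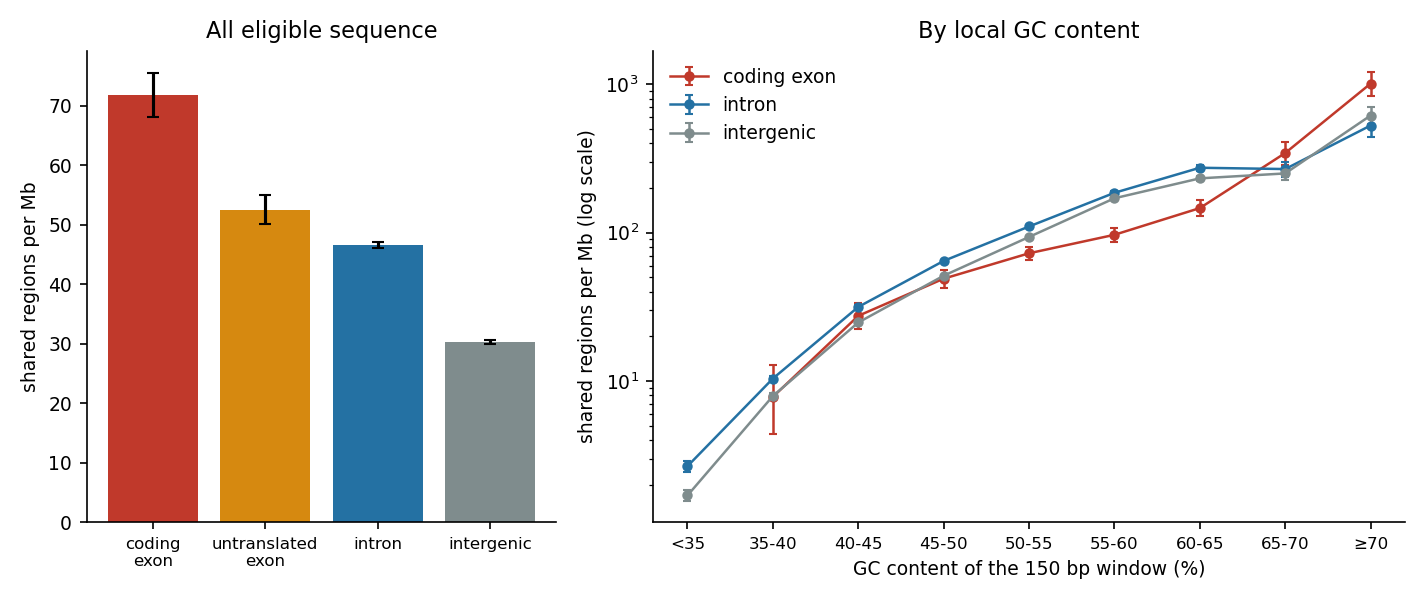
Left, shared regions per Mb of sequence more than 2000 bp from start sites in each class; right, the same by GC content of the 150 bp window on a log scale, with exact Poisson 95% intervals as error bars. Coding exons stand highest on the left at 71.8 per Mb, but on the right they lie below introns in every bin from 35% to 65% GC and above them from 65% on; the coding bin under 35% held 0 regions and is not drawn.

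The regions were richer in G and C than the other classes of open regions far from start sites and than coding exons without a peak. Their median GC content was 56.0%, against 50% in introns, 49.3% between genes, 52.0% in the untranslated part of exons and 48.7% in 113102 coding exons without a peak in either replicate. The ratio of observed to expected CpG was 0.437 at the median, against 0.225, 0.238, 0.249 and 0.331 in the same order. With a GC content over 50% and a CpG ratio over 0.6 as the mark of a CpG-rich window, 416 regions or 27.5% (25.2% to 29.8%) were CpG-rich, against 3.05% in introns, 4.86% between genes and 6.23% of coding exons without a peak. Inside long exons, of at least 450 bp, the region itself had a higher GC content than the rest of its exon in 274 of 398 cases, 68.8% (64.0% to 73.4%), with medians of 62.0% in the region and 60.5% in the rest. GC content averaged 57.8% at 25 bp from the midpoint and 46.5% at 975 bp, where 10.7% of bases were coding; intron regions had 50.6% and 44.8% at these distances.

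Strength and composition went together among the regions. The 379 strongest had median scores of 98 and 72, a median GC content of 60.7% and 43.0% CpG-rich windows, and 38.8% of them lay in last coding exons. The 378 weakest had scores of 40 and 26, a GC content of 52.7%, 14.6% CpG-rich windows and 20.6% in last coding exons. The nearest start site lay at a median of 6783 bp from the 379 strongest and 8822 bp from the 378 weakest, and at 7245 bp over all regions, the farthest at 325932 bp.

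The regions were not spread evenly along genes. Last coding exons held 432 of them, 28.5% (26.3% to 30.9%) on 18.9% of the coding bases, which is 112 regions per Mb (102 to 123). Internal exons held 966, 63.8% on 73.9% of the bases, or 63.8 per Mb (59.8 to 67.9). Genes with a single coding exon held 65 regions (80.1 per Mb) and first coding exons 51 (76.4 per Mb). With the coding sequence cut into 5 equal stretches from its 5′ end, the density was 59.9, 64.4, 63.9, 79.4 and 94.9 regions per Mb. Last exons of 200 to 500 bp were densest, with 153 per Mb (127 to 182), against 71.7 (62.3 to 82.1) in internal exons of the same length.

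The difference between last and internal exons was large only in exons rich in G and C. In exons over 60% GC, last exons held 421 regions per Mb (367 to 480), against 156 (136 to 179) in internal exons. In exons of 50% to 60% they held 92.3 (78.3 to 108), against 79.4 (72.6 to 86.6), and at up to 50%, 35.2 (26.8 to 45.5), against 33.9 (29.9 to 38.4). The intervals of the last pair and of the middle pair overlap.

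**Figure D3:**
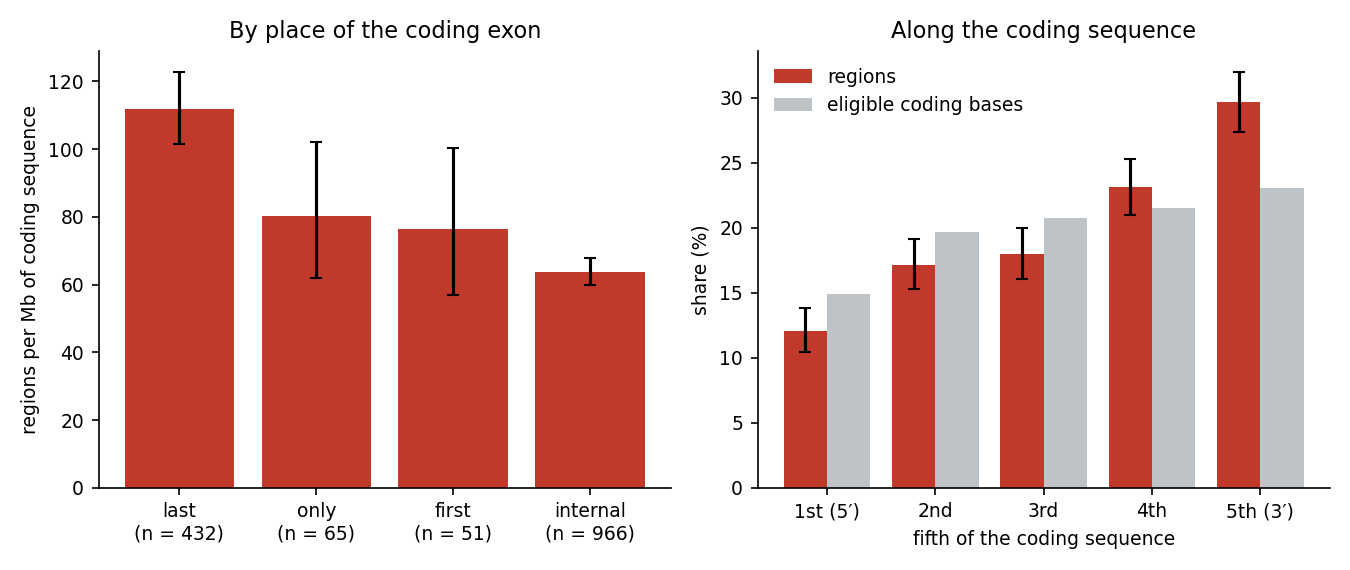
Left, coding exon regions per Mb of coding sequence by place of the exon, with exact Poisson 95% intervals; right, the share of regions (red, exact binomial 95% intervals) and of eligible coding bases (grey) in each of 5 equal stretches of the coding sequence. Last exons stand highest at 112 per Mb, and the stretch at the 3′ end holds 29.7% of regions on 23.1% of bases.

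Most regions crossed an edge of their coding exon. Their median width was 170 bp (range 150 to 470 bp). The median exon was 203 bp long, against 127 bp over all eligible coding exons. These medians are not like for like, since the latter counts each exon once and long exons offer more bases to a midpoint. Exons of 0 to 100 bp held 8.78% of regions on 12.995% of coding bases, and those of 100 to 200 bp 40.7% on 42.5%. Exons of 200 to 500 bp held 23.1% on 18.97%, of 500 to 1000 bp 11.6% on 9.77%, and longer ones 15.8% on 15.7%. Of the regions, 950 or 62.7% (60.3% to 65.2%) crossed an edge of the exon, as did those of Slc4a5 and Epha7 above. A region wider than its exon must cross an edge, and the share expected from the widths was not worked out. Every base was coding in 569 regions. Of the 966 regions in internal exons, 260 crossed only the 5′ edge, 247 only the 3′ edge, 224 both and 235 neither. The 564 regions that lay wholly inside their exon had median scores of 70 and 45 and a median GC content of 61.3%, against 61 and 38 and 54.0% in those that crossed an edge. The 2 sets also differed in exon length, with medians of 814.5 bp inside and 153 bp across an edge. The widest regions were in Stat5b, a signal transducer of cytokine receptors, at 470 bp, then in Grid2ip, AI464131, Speg and Nkx6-3.

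Several motifs occurred more often in the regions than in coding exons without a peak, which share their coding constraint. The CTCF motif was in 56 regions, 3.70% (2.81% to 4.78%), against 0.158% (0.136% to 0.183%) of exons without a peak, 2.01% of intron regions, 2.34% of regions between genes and 2.25% of all regions far from start sites. Regions in the untranslated part of exons had a higher share, 4.35% (3.47% to 5.37%), and its interval overlaps that of coding exon regions. Coding exon regions with the CTCF motif were strong: their median scores were 84.5 and 56.5, against 63 and 40 without it. Of those with the motif, 30 lay among the 378 strongest and 5 among the 378 weakest. The highest were in Prrt4 (118 and 89) and Prrt3 (108 and 91), proline-rich transmembrane protein genes, and in Trp53i13 (114 and 86). At a GC content over 60% the share was 5.05% (3.26% to 7.42%), against 0.729% in exons without a peak, 4.06% in introns and 6.58% between genes.

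The RFX motif, which the factors of ciliary genes bind, was in 41 regions, 2.71% (1.95% to 3.66%), against 0.150% of exons without a peak, 1.76% of intron regions and 1.81% of all regions far from start sites. The share was 1.58% in the peaks of replicate 1 alone and 2.31% in those of replicate 2 alone. Above 60% GC the excess over introns was not seen, with 0.632% of coding exon regions (3 of 475, 0.130% to 1.83%), against 1.55% of intron regions (1.06% to 2.18%). These intervals overlap. The RFX motif did not go with strength, with 12 regions each among the 378 strongest and weakest and median scores of 59 and 40. Cabin1, a calcineurin-binding protein gene, had 109 and 90, and Focad, the gene of focadhesin, 109 and 87. The Focad window, printed above, held 0 CpG.

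The Sp1 box was in 152 regions, 10.04% (8.57% to 11.7%), against 2.81% of exons without a peak, 4.21% of intron regions and 4.61% of all regions far from start sites. Above 60% GC the order against introns turned round, with 21.1% of coding exon regions, against 23.5% of intron regions and 11.6% of exons without a peak. The E-box CAGCTG, bound by proneural factors such as Atoh1, was in 393 regions, 26.0% (23.8% to 28.2%), against 11.5% of exons without a peak, 17.8% of intron regions and 17.5% of all regions far from start sites. At 50% to 60% GC the E-box was in 29.4% of coding exon regions, against 22.8% of intron regions, but above 60% in 28.2% (24.2% to 32.5%), against 29.4%. The Zic motif CAGCAGG was in 215, 14.2% (12.5% to 16.1%), against 6.53%, 10.03% and 10.1% in the same order. At like GC content the Zic share was close to that of introns, with 7.76% against 7.09% at up to 50%, 14.9% against 12.8% at 50% to 60%, and 17.7% (14.4% to 21.4%) against 17.2% above 60%. Exons without a peak had 3.50%, 9.65% and 15.2% (14.4% to 16.1%) in these bins, and above 60% the intervals overlap.

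The AT-rich homeobox motif TAATTA was rarer than in intron regions. It was in 19 regions, 1.25% (0.757% to 1.95%), against 2.05% of exons without a peak, 5.56% of intron regions and 5.52% of all regions far from start sites. It was in 0.357% where only the stronger part of each peak list was used and in 0.726% with lists of equal length. At a GC content of up to 50% it was in 4.18% of coding exon regions (2.30% to 6.91%), against 3.46% of exons without a peak and 8.39% of intron regions. At 50% to 60% it was in 0.710% (0.231% to 1.65%), against 0.261% (0.215% to 0.314%) and 2.62%. In these 2 bins the share was thus not below that of exons without a peak, and the intervals of the 2 sets overlap. Above 60% it was in 0 of 475 coding exon regions, against 0.0438% of exons without a peak. The Pou motif ATGCAAAT was in 4 regions, 0.264%, against 0.488% of exons without a peak, 1.24% of intron regions and 1.39% of all regions far from start sites.

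The remaining motifs were searched on both strands too. The nuclear factor I core TTGGCA was in 288 regions, 19%, against 9.6% of exons without a peak and 19.6% of all regions far from start sites. The short RFX core GTTGCC, which lies inside the RFX motif, was in 158 regions, 10.4%, against 5.2% of exons without a peak and 10% of all regions far from start sites. Both cores were more frequent than in exons without a peak and about as frequent as in all regions far from start sites. The E-box CAGATG was in 285 regions, 18.8%, against 14.6% of exons without a peak and 20.6% of all regions far from start sites, and the E-box CACGTG was in 60 regions, 3.96%, against 2.35% of exons without a peak and 2.87% of all regions far from start sites. The Sox motif ACAAAGG was in 48 regions, 3.17%, against 3.27% of exons without a peak and 4.21% of all regions far from start sites, and the Sox core ACAATGG was in 21 regions, 1.39%, against 2.34% of exons without a peak and 2.2% of all regions far from start sites. The longer Sox motif lay near the share of exons without a peak and the Sox core below it. The AP-1 motif TGANTCA was in 52 regions, 3.43%, against 3.49% of exons without a peak and 5.48% of all regions far from start sites, and the cyclic AMP element TGACGTCA was in 3 regions, 0.198%, against 0.215% of exons without a peak and 0.295% of all regions far from start sites.

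Of motifs for growth and lineage factors, the ETS motif CCGGAAG was in 40 regions, 2.64%, against 1.75% of exons without a peak and 0.974% of all regions far from start sites. The ETS share was above both comparisons, and the nuclear receptor share was below that of exons without a peak. Neither was compared at like GC content, nor were the other motifs of this paragraph and the one before it. The ETS motif holds a CpG, and 27.5% of the regions were CpG-rich, against 6.23% of exons without a peak. The nuclear receptor core AGGTCA was in 106 regions, 7%, against 10.4% of exons without a peak and 6.7% of all regions far from start sites, and the Ebf motif CCCNNGGGA was in 40 regions, 2.64%, against 2.04% of exons without a peak and 3.15% of all regions far from start sites. The Pbx-Hox motif TGATTNAT was in 20 regions, 1.32%, against 1.28% of exons without a peak and 2.65% of all regions far from start sites, and the Mef2 motif TAAAAATAG was in 3 regions, 0.198%, against 0.173% of exons without a peak and 0.352% of all regions far from start sites. The rest were rare. The Gli motif TGGGTGGTC was in 4 regions, 0.264%, against 0.133% of exons without a peak and 0.156% of all regions far from start sites, and the YY1 motif AAGATGGCG was in 3 regions, 0.198%, against 0.135% of exons without a peak and 0.181% of all regions far from start sites. The Klf motif GGGTGTGG was in 9 regions, 0.594%, against 0.769% of exons without a peak and 0.706% of all regions far from start sites, and the Tead motif ACATTCCA was in 9 regions, 0.594%, against 0.698% of exons without a peak and 0.729% of all regions far from start sites. The NRF1 motif GCGCATGCG was in 2 regions, 0.132%, against 0.0336% of exons without a peak and 0.183% of all regions far from start sites; the 2 regions lie in Zfp771 and Synpo, the gene of the actin-associated protein synaptopodin.

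**Figure D4:**
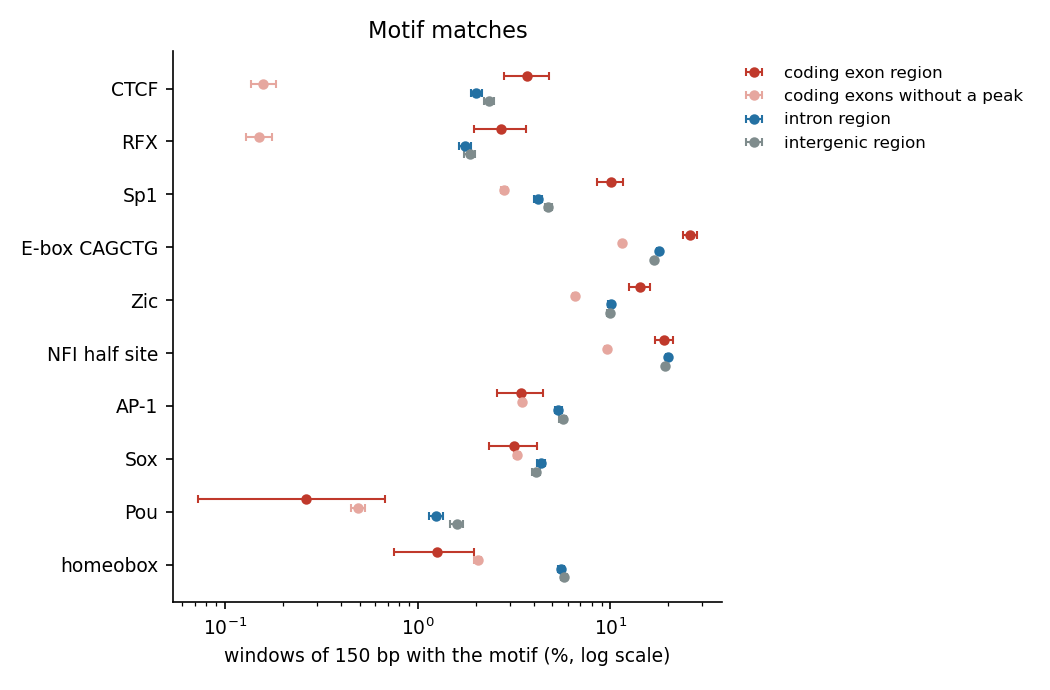
Share of 150 bp windows with each of 10 motifs (percent, log scale) in coding exon regions, coding exons without a peak, intron regions and regions between genes, with exact binomial 95% intervals. The CTCF and RFX points of coding exon regions, at 3.70% and 2.71%, lie far right of those of exons without a peak, and the homeobox and Pou points lie left of those of introns.

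The 1514 regions lay in 1290 genes, 7.67% of the 16818 protein-coding genes that have coding sequence more than 2000 bp from every start site. Of these genes 1117 had 1 region, 139 had 2, 26 had 3 and 8 had more. Host genes had more eligible coding sequence, with a median of 1658.5 bp against 836 bp in the other eligible genes, and with genes split by that length into 5 equal groups, 17.5% had a region in the longest group and 1.55% in the shortest. The promoter was open in both replicates in 1039 host genes, 80.5% (78.3% to 82.7%), against 72.7% of the other eligible genes. Scores were alike whether or not the host promoter was open, with medians of 63 and 41 where it was (1223 regions) and 64 and 43 where it was not (291 regions). Pomc, Snx20 and Slc4a5 were strong regions whose host promoter had no peak in both replicates.

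Among the genes with most regions, Syne1, whose product nesprin-1 links the nucleus to the cytoskeleton, had 9 regions spread over its 145 coding exons, with scores of 80 and 47 at the strongest and 39 and 23 at the weakest. Tchh, which encodes the hair follicle protein trichohyalin, had 7 regions, all in its last coding exon, from 103 and 92 to 35 and 33, and its promoter was not open in both. Dst, the cytoskeletal linker dystonin, had 5. Cachd1, Prr36, Cep250, Col6a3 and Fbxo41 had 4 each; those of Col6a3, a collagen VI chain, reached 113 and 77.

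By gene list, transcription factors of neural development outside the zinc finger and homeobox families had regions in 11 of 31 eligible genes, 35.5% (19.2% to 54.6%), against 7.67% of all eligible genes. The strongest was in Tcf4 (98 and 67), an E-box binding factor, followed by Sox5 (83 and 72), Sox8 (85 and 68), which held a CTCF motif, and Sox9 (86 and 66). Per Mb of coding sequence the list had 353 regions (183 to 617), against 71.4 in all eligible genes. Its share of genes was 22.7% at over 5000 bp from start sites, 25.8% with hotspots and 29.0% in the stronger part of each peak list. All eligible genes had 6.92%, 7.13% and 4.45% in these settings. The share of the list was 42.6% at over 500 bp and 41.9% in replicate 1 alone, against 9.58% and 15.1%. Neither its share nor its density was held to like GC content. Of the zinc finger factors 7 of 32 had one (21.9%; 66.4 regions per Mb, 26.7 to 137), St18 with 72 and 45, Casz1 with 79 and 41 and Rest, the repressor of neuronal genes, with 70 and 40 among them. The Casz1 region lay 297 bp from a start site of the RefSeq annotation, which the distance rule did not use. Of the homeobox genes 4 of 32 had one (12.5%; 186 per Mb, 60.3 to 433): Nkx2-2 (107 and 90), En1 (65 and 54), Otx1 (63 and 39) and Nkx6-1 (39 and 36). Nkx2-2 patterns the ventral neural tube and En1 marks the midbrain-hindbrain boundary.

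For the lists that follow, the shares of genes with a region lay above the 7.67% of all eligible genes, from 15.6% for axon guidance to 31.7% for the cytoskeleton. Per Mb of coding sequence, which takes their length into account, the intervals of 6 of these 7 lists include the 71.4 of all eligible genes. The density was 79.9 (49.4 to 122) for the cytoskeleton, 73.2 (41.8 to 119) for chromatin regulators, 63.8 (25.7 to 132) for cadherins and 63.2 (25.4 to 130) for axon guidance. It was 103 (62.9 to 159) for synapse and channel genes, 94.8 (50.5 to 162) for the receptor list and 119.7 (76.7 to 178) for the extracellular matrix.

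Genes of the cytoskeleton had regions in 13 of 41 cases, with Sptbn4, a spectrin of axon initial segments, at 91 and 75 and Mapt, the tau gene, at 84 and 67. Extracellular matrix genes had them in 13 of 44, with 24 regions in all. Synapse and channel genes had them in 14 of 52, led by Dlgap3, a postsynaptic scaffold, at 116 and 93 and Cacna1a, the P/Q-type calcium channel, at 117 and 78. Shank3, another postsynaptic scaffold, had 98 and 71 at its strongest. Of the chromatin regulators 11 of 53 had one, among them the remodellers Chd9 (104 and 68) and Chd7 (114 and 61) and the methyltransferase gene Kmt2a (87 and 61). The cadherin list had 7 of 30, with Cdh22 at 101 and 79, and the list of Notch, Lrp and patterning receptors 8 of 40, with Notch3 at 101 and 77. Axon guidance genes had 7 of 45, with Nrp2, a semaphorin receptor, at 78 and 57 and Epha7 at 74 and 47.

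Lists of other tissues and of clustered gene families lay near or under the share of all genes. Muscle genes had 2 of 27, Ttn at 54 and 26 and Myh2 at 44 and 22, liver genes 1 of 24, Alb at 65 and 35, and blood genes 0 of 23, which allows up to 14.8%. Olfactory and vomeronasal receptor genes had 1 of 237, Olfr70, at 0.422% (0.0107% to 2.33%). C2H2 zinc finger genes, taken by symbol, had 31 of 404, 7.67% (5.27% to 10.7%). Splicing genes had 2 of 32, Nova2 (99 and 74) and Elavl2 (78 and 45), neuronal RNA-binding proteins. This Nova2 region lay 18 bp from a start site of the RefSeq annotation, which the distance rule did not use. Per Mb of coding sequence the muscle list had 11.5 regions (1.40 to 41.7), the receptor genes of smell 2.74 (0.0695 to 15.3) and the C2H2 genes 55.8 (38.8 to 77.6), against 71.4 in all eligible genes.

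**Figure D5:**
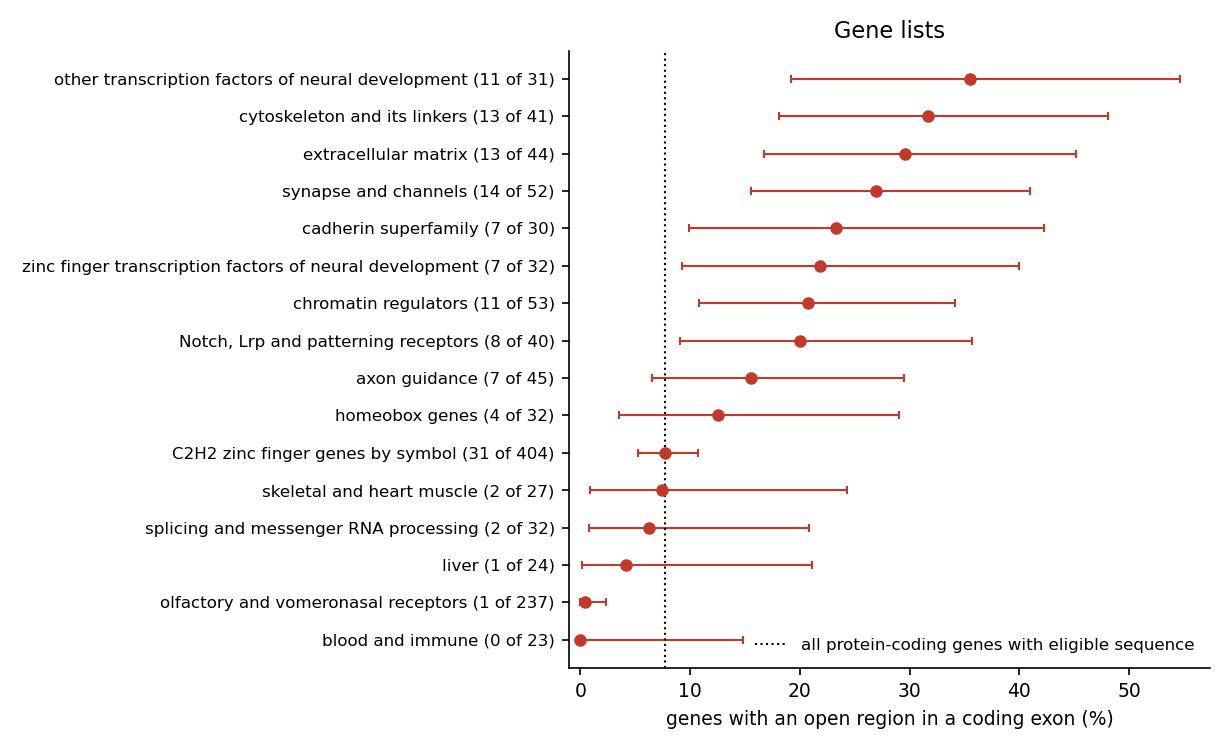
Share of genes with a coding exon region (percent, exact binomial 95% interval) in each of 16 lists, with the counts beside each name, and the dotted line at 7.67% of all eligible genes. Neural transcription factors stand at the top with 11 of 31, and blood and receptor genes at the bottom with 0 of 23 and 1 of 237.

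By chromosome, coding exons of the X had 26.9 regions per Mb (17.1 to 40.4), against 73.9 (70.2 to 77.8) on autosomes, and the X was also lower in introns, at 16.8 against 48.2, and between genes, at 9.38 against 34.2. The autosomes ran from 58.0 per Mb on chromosome 16 to 101.4 on chromosome 10, with chromosome 15 at 100.8. The nearest other shared region lay at a median of 2980 bp, against 3490 bp for intron regions and 3830 bp between genes. All 1514 regions lay in a hotspot of each replicate, a broader enriched interval called by the authors. So did all 44048 intron regions and all 43003 regions between genes. Median hotspot widths were 341 and 275 bp, against 319 and 267 bp in introns and 329 and 282 bp between genes.

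Just outside the distance rule, at 1500 to 2000 bp from a start site, 175 regions in coding sequence had median scores of 67 and 45, and just inside, at 2000 to 2500 bp, 129 had 67 and 42. Start sites of the RefSeq annotation lay within 500 bp of 32 of the 1514 regions and within 2000 bp of 85, which the rule, built on another annotation, did not remove. The region in the first coding exon of Slc1a6, a glutamate transporter of Purkinje cells, with scores of 130 and 105, was 34 bp from such a start.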

How the data were processed

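DNase-seq peaks and hotspots of 2 replicates were used as deposited. Both were called on mm10 from each library's own alignments, without pooling, per the file headers and the text files beside them. No source used here names the caller, its threshold or the aligner. In the peak tables the authors deposited a score per peak, from 1 to 150, whose scaling is not stated. In the hotspot tables the authors deposited a −log10 q, capped at 100. Read depth is unknown, since the tables hold no read counts, so the precision behind a peak cannot be given. The 270757 and 171790 peaks on 21 chromosomes were merged at 1 bp; a region has the highest score of its peaks in each replicate. No column of another sample was used.

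Start sites and coding sequence came from GENCODE release M21 (21) and sequence from RefSeq GRCm38.p6, the same assembly. Eligible sequence is that over 2000 bp from every start site; counting assembly gaps as sequence gives 30.3 regions per Mb between genes, and leaving them out 32.0. A host's coding exon is that of 1 coding transcript, APPRIS principal where tagged and then the longest. GC content, the CpG ratio and 25 textbook motifs were taken in 150 bp around the midpoint; a promoter is 500 bp on each side of a start site. Intervals are exact binomial or Poisson at 95%. The scripts were tested on simulated data and recovered the planted regions and motifs. Python 3.11.15, numpy 2.4.6, pandas 2.3.3, scipy 1.17.1 and pysam 0.24.0 were used.

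The regions, the 16 gene lists and the motifs were chosen with earlier results of these data known. Named genes are hosts of the 20 highest and 3 lowest regions by mean percentile, the 10 genes with most regions, up to 4 of each list, the 3 highest with each motif and the 5 widest; the sequences shown come from these genes. Regions on chromosome 18 are counted but their sequences are not shown.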

Additional observations from a re-analysis of the deposited data

How the results depend on the processing

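With 2 libraries in 1 group every value is a description. Counts of regions and genes were called moved by their fold difference from the main count, not by the spread between replicates. Shares, medians and densities were called moved when they differed by more than the spread between replicates. Recovery was judged by the margin of its counting interval, and a value without any spread was called moved by default. Scores at or above each list's median left 841 regions in 748 genes; a distance of over 500 bp gave 2492 in 2049 genes, a share of 2.32%, and over 5000 bp 979 in 844 genes, 1.298%. The median percentile, 62.8 over both replicates, was 63.2 with a reciprocal overlap of 50%, 76.6 in the stronger part, 67.95 with hotspots, 65.8 with lists of equal length, 64.3 at 500 bp and 60.7 at 5000 bp. Median GC content was 58.7%, 55.3%, 56.7%, 58% and 54.7% in the last 5 of these settings in that order and 56.7% where at least 50% of bases had to be coding. Last exons held 32.8% in the stronger part, 23.2% at 500 bp and 25.9% at 5000 bp. The share that crossed an exon edge was 63.6% with the reciprocal overlap, 57.6% in the stronger part, 83.7% with hotspots, 62.4% with equal lists, 55.7% at 500 bp, 66.8% at 5000 bp, 60.8% with 50% coding bases, 62.2% with the longest transcript and 63.8% away from RefSeq starts too, an alternative chosen after seeing the data. The CTCF share was 4.99% in the stronger part, 4.07% with equal lists and 3.06% at 5000 bp. Recovery of replicate 1 peaks was 41.6% with the reciprocal overlap, 50.9% in the stronger part and 64.2% with equal lists.

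Taking each replicate alone (without replicate 1 or without replicate 2), the number ran from 1773 to 3351, genes from 1455 to 2533, the share from 1.62% to 1.77%, density from 84.0 to 159 per Mb, median percentile from 48.99 to 49.3, GC content from 55.3% to 56%, last exons from 27.0% to 28.6%, edge crossing from 58.1% to 58.5%, open host promoters from 80.5% to 87.4%, the CTCF share from 2.78% to 3.21% and genes with a region from 8.65% to 15.1%.

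The coding over intron density, 1.54, stayed between 1.47 and 1.71 in the 9 settings without local GC content, and fell to 0.676 once standardised to it; against sequence between genes, 2.37, it fell to 0.775. This setting was chosen after seeing the data. No paired analysis was possible because the series has 1 group. Unknown read depth limits all counts of regions.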
